A study of Mus musculus with 6 samples.

Results

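Endothelial identity genes are the genes whose products mark and build the cells lining blood and lymph vessels, and 35 of them were followed here in RNA sequencing of the whole mouse aorta. They were taken as a list of named genes, from junction proteins such as *Pecam1* and *Cdh5* to transcription factors such as *Erg* and *Sox17*, and all 35 were found by NCBI gene identifier among the 18191 genes of the deposited table. The samples were 3 libraries from male wild-type mice (WT) and 3 from male *Npr1*+/- mice, in which 1 copy of *Npr1* had been disrupted with CRISPR-Cas9. *Npr1* encodes the receptor of atrial and B-type natriuretic peptides, the allele is present in every cell of the animal, and no age is given for the sequenced tissue. The n of each genotype is its 3 libraries. Because a whole vessel was taken, fewer cells of a type and less RNA per cell cannot be told apart. The question put to these genes was whether they differ between the genotypes by an even amount, as a list does when all its members scale together, or singly.

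The endothelium is a single cell layer that forms the inner wall of every vessel. Its cells are held together by junctions of VE-cadherin, PECAM-1 and claudin-5, they respond to vascular endothelial growth factors and angiopoietins through receptor tyrosine kinases, and they keep their identity through transcription factors of the ETS, SOX and KLF families. In the aorta this layer is thin beside the smooth muscle of the media and the fibroblasts, nerves, small vessels and fat of the outer wall, so that its genes make up a small part of the RNA of the tissue.

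Each library held between 13510970 and 16664343 estimated counts, so that 3 counts stood for between 0.180 and 0.222 CPM (counts scaled to the size of the library), and all 35 members were above the filter on low counts, which left 13938 genes for testing. The p-values measure the spread between these libraries only, since the labels do not say that each came from a separate animal. *Npr1* itself had 112, 153 and 152 FPKM (fragments scaled by transcript length and library size, so that levels of different genes can be compared) in WT 1, 2 and 3 and 70.4, 110 and 133 FPKM in *Npr1*+/- 1, 2 and 3. The genotypes overlapped at this gene, with a log2 fold change of -0.41 (SE 0.27) and an adjusted p of 0.999 by edgeR's quasi-likelihood test, although *Npr1*+/- was the lower library in each of the 3 pairs of equal number. *Npr1*+/- 1 stood apart from the other libraries. Its sympathetic nerve genes *Th* and *Dbh* were at 70.3 and 132 CPM, against at most 0.13 and 0.57 CPM in the others, and its 8 smooth muscle markers summed to 12861 CPM, against 20867 to 38093 CPM. Values without this library are given for each group of endothelial genes below.

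The members spanned a wide range of levels. Their mean FPKM over the 6 libraries lay between 0.277 and 115 with a median of 16.5, and 25 of the 35 were above 10 FPKM. *Pecam1*, the adhesion molecule of endothelial cell borders, had the highest mean at 115 FPKM. It was followed by the shear stress-responsive factor *Klf2* at 87.2, the sialomucin *Cd34* at 69.0, the TGF-beta co-receptor *Eng* at 53.4 and the diaphragm protein *Plvap* at 48.2 FPKM. *Prox1*, the master transcription factor of lymphatic endothelium, was the lowest at 0.277 FPKM, and rested on 7 to 89 counts per library. The 35 genes together took 0.251%, 0.176% and 0.220% of all counts in WT 1, 2 and 3 and 0.368%, 0.270% and 0.260% in *Npr1*+/- 1, 2 and 3. The lowest of these shares in *Npr1*+/- was above the highest in WT by a narrow margin, and *Npr1*+/- 1 was the library with the largest share.

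In *Npr1*+/- aortas 33 of the 35 members had a positive log2 fold change, with a median of 0.59 and a middle range from 0.27 to 0.67, whereas 51.6% of all 13938 tested genes were above 0 and their median was 0.01. None of the members was called, that is, combined an adjusted p below 0.05 with a log2 fold change of 0.5 or more in size, in edgeR's quasi-likelihood test, where 0.0% of all tested genes were called. At an unadjusted p under 0.05 the same test listed 11 members, all with higher values in *Npr1*+/- (31.4% of the members, against 1.88% of all genes in that direction), and the lowest adjusted p among the members was 0.999. DESeq2 also called 0 members, where it called 0.0942% of all genes in either direction and 0.0883% as higher in *Npr1*+/-. The 3 values of *Npr1*+/- were all above the 3 values of WT in 13 members (37.1%), against 3.9% of all genes, and all below them in 0 members, against 3.58% of all genes. Without WT 1, 23 members were fully higher in *Npr1*+/- and 1 fully lower, but 16.6% of all genes were then fully higher, since fewer values have to be apart. The count of 11 at an unadjusted p under 0.05 in edgeR became 5 without *Npr1*+/- 1 (1.33% of all genes higher at that p) and 4 without WT 2 (1.07%). The median log2 fold change of the members was 0.26 without *Npr1*+/- 1, where 26 of 35 members and 43.5% of all genes were above 0, and 0.37 without WT 2.

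**Figure D1:**
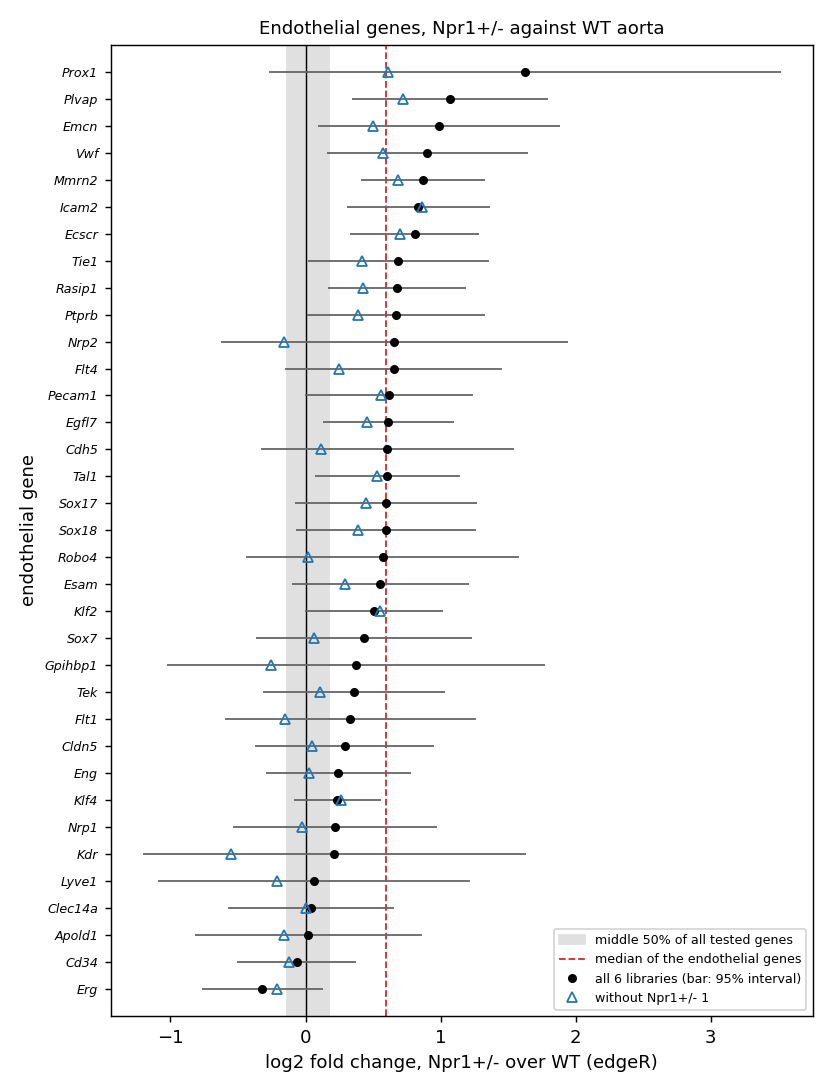
Log2 fold change (*Npr1*+/- against WT) of the 35 endothelial identity genes from edgeR, each with its 95% interval, ordered by log2 fold change. The grey band marks the middle 50% of all tested genes, the dashed line the median of the members at 0.59, and blue triangles the values without *Npr1*+/- 1. Of the 35 intervals, 11 lie above 0 and 32 include the dashed line.

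The libraries numbered 1 resembled each other, with a correlation of their deviations of 0.64. This was not clear for the other numbers, since WT 3 correlated more with *Npr1*+/- 2 (0.44) than with *Npr1*+/- 3 (0.24). The labels do not say what the number marks. With this limit, the comparison was also made within pairs of equal number. With the replicate block in edgeR, 0 members were called (0.0% of all genes), the lowest adjusted p was 0.106 and 23 members had an unadjusted p under 0.05, of which 22 were higher in *Npr1*+/- (7.36% of all genes in that direction). The log2 fold change was above 0 in 32 members, against 51.1% of all genes. DESeq2 with the replicate block, which was added after seeing the data, called 9 members, all higher in *Npr1*+/-: *Plvap*, *Emcn*, *Vwf*, *Mmrn2*, *Tie1*, *Ecscr*, *Ptprb*, *Pecam1* and *Egfl7*. It called 1.81% of all genes in either direction and 1.2% as higher in *Npr1*+/-. At an unadjusted p under 0.05 this fit listed 19 members, all higher in *Npr1*+/-, against 4.28% of all genes in that direction. These 9 calls rest on that fit, since no other fit called a member. Of the 35 members, 22 were higher in *Npr1*+/- in all 3 pairs (62.9%, against 17.5% of all genes), and *Erg* was the 1 member lower in all 3.

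The 10 receptors and co-receptors all had positive log2 fold changes, with a median of 0.46. In 2 of them the 3 *Npr1*+/- values were all above the 3 WT values, against 3.9% of all genes. Without *Npr1*+/- 1, and with WT 1 kept, 6 of the 10 were above 0 and the median was 0.022. In all 3 pairs of equal number 7 of the 10 were higher in *Npr1*+/-, against 17.5% of all genes. With the replicate block in edgeR their median was 0.44. *Tie1*, an orphan receptor that modulates angiopoietin signalling, was at 18.3, 10.2 and 14.6 FPKM in WT 1, 2 and 3 and at 29.6, 19.1 and 19.9 FPKM in *Npr1*+/- 1, 2 and 3. Its log2 fold change was 0.69 (SE 0.28, edgeR unadjusted p = 0.0452, adjusted p = 0.999), and the lowest *Npr1*+/- value was just above the highest WT value. *Ptprb*, the phosphatase VE-PTP that restrains TIE2, had 11.1, 7.40 and 11.6 FPKM in WT and 20.7, 13.5 and 13.3 FPKM in *Npr1*+/- (log2 fold change 0.67, SE 0.28). For *Tek*, which encodes TIE2, the difference was 0.36 (SE 0.28) with overlapping groups, so the 3 genes of the angiopoietin receptor complex had the same sign but different separations. Their log2 fold changes without *Npr1*+/- 1 were 0.41 for *Tie1*, 0.39 for *Ptprb* and 0.10 for *Tek*.

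The VEGF receptors had a wider spread. *Kdr*, the main signalling receptor of VEGF-A, was at 13.7, 4.04 and 6.08 FPKM in WT and 16.0, 5.48 and 5.54 FPKM in *Npr1*+/-. Both libraries numbered 1 were far above the other 4, and the log2 fold change of 0.21 had an SE of 0.59, with values from -0.55 without *Npr1*+/- 1 to 0.84 without another library. *Flt1*, the VEGF decoy receptor, differed by 0.33 (SE 0.39) and *Flt4*, the VEGF-C receptor, by 0.65 (SE 0.34). The neuropilins *Nrp1* and *Nrp2*, co-receptors of VEGF and semaphorins, differed by 0.22 (SE 0.32) and 0.66 (SE 0.54), and the guidance receptor *Robo4* by 0.57 (SE 0.42). These were, without *Npr1*+/- 1, -0.15 for *Flt1*, 0.25 for *Flt4*, -0.026 for *Nrp1*, -0.16 for *Nrp2* and 0.022 for *Robo4*. *Eng*, among the 5 most abundant members, was at 58.7, 40.7 and 48.3 FPKM in WT and 71.2, 50.1 and 51.6 FPKM in *Npr1*+/- (log2 fold change 0.24, SE 0.22). WT 1 lay above *Npr1*+/- 2 and 3, so the genotypes overlapped, and without *Npr1*+/- 1 the log2 fold change was 0.023.

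Promoter sequence is shown for *Eng*, the abundant receptor gene with a small difference, and for *Tal1* and *Klf4*, transcription factor genes whose genotypes did not overlap, since the members share endothelial expression and ETS factors such as ERG bind a GGAA core in many endothelial promoters. Each stretch is the 250 bases before the RefSeq start on GRCm38.p6, read 5′ to 3′ along the gene, with matches to the letters AGGAAG or its reverse complement CTTCCT in capitals. *Eng* is on the plus strand at chr2:32646345-32646594, *Tal1* on the plus strand at chr4:115056176-115056425 and *Klf4* on the minus strand at chr4:55532476-55532725.
Eng: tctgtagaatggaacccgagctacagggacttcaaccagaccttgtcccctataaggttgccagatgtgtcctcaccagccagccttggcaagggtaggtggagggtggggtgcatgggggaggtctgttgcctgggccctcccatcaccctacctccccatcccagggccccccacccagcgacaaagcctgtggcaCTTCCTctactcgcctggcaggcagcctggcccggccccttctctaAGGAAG
Tal1: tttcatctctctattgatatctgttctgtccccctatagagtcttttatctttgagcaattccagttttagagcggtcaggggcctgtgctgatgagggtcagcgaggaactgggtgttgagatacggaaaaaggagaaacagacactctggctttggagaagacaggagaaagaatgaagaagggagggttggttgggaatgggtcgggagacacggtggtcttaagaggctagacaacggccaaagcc
Klf4: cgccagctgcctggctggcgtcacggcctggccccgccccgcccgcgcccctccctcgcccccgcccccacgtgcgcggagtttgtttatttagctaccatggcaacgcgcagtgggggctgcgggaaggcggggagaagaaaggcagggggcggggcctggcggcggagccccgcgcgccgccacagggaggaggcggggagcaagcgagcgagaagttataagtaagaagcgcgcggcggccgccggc
*Eng* holds the letters AGGAAG or CTTCCT at 2 places, 52 and 6 bases before its start, and *Tal1* and *Klf4* hold none in this window. The shorter GGAA core alone does occur in the stretches of *Tal1* and *Klf4* and was not counted. A window was at hand for 21 of the 35 members, and 10 of them (47.6%) held AGGAAG on either strand, against 4061 of 14207 promoters of all genes (28.6%). The letters of a SOX core, ACAAT or its reverse complement ATTGT, which cannot overlap the ETS letters, were in 6 of the 21 (28.6%), against 2901 of all promoters (20.4%). The 10 members with AGGAAG were *Apold1*, *Cd34*, *Egfl7*, *Emcn*, *Eng*, *Flt1*, *Nrp1*, *Rasip1*, *Robo4* and *Tie1*, which include *Apold1* and *Cd34* with log2 fold changes near 0 as well as *Emcn* with 0.99. Several of these windows are not sequence outside a gene. Those of *Apold1* and *Rasip1* are annotated as exon in all 250 bases and that of *Tie1* in 212. Those of *Emcn*, *Flt1*, *Nrp1* and *Robo4* overlap the RefSeq span of their own gene. Such windows were not left out of either share. A match describes letters in a window and not a bound site.

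Among the 9 junction and surface adhesion genes, 8 had positive log2 fold changes, with a median of 0.61. The genotypes did not overlap in 3, all higher in *Npr1*+/-, against 3.9% of all genes. With *Npr1*+/- 1 left out, again 8 were above 0, with a median of 0.29. *Pecam1* was at 81.9, 69.7 and 121 FPKM in WT (90.8 ± 26.6, SD, n = 3) and at 143, 140 and 134 FPKM in *Npr1*+/- (139 ± 4.97, SD, n = 3). The *Npr1*+/- libraries were close to each other and all above the WT libraries, which were more spread, and the log2 fold change was 0.62 (SE 0.26, edgeR unadjusted p = 0.0514, adjusted p = 0.999). *Icam2*, a ligand of leukocyte integrins at endothelial junctions, had 11.2, 8.64 and 14.4 FPKM in WT and 18.6, 21.6 and 20.7 FPKM in *Npr1*+/- (log2 fold change 0.83, SE 0.22, edgeR unadjusted p = 0.00754, adjusted p = 0.999). In both genes *Npr1*+/- 1 was not out of line with *Npr1*+/- 2 and 3. *Ecscr*, a surface protein that modulates chemotaxis and VEGF signalling, was at 15.2, 9.76 and 11.5 FPKM in WT and 23.2, 19.6 and 19.9 FPKM in *Npr1*+/-, a log2 fold change of 0.81 (SE 0.20). Without *Npr1*+/- 1 the log2 fold changes of *Pecam1*, *Icam2* and *Ecscr* were 0.56, 0.86 and 0.70.

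*Cdh5*, which encodes VE-cadherin and defines the adherens junction of these cells, was less separated. It had 31.3, 16.3 and 26.7 FPKM in WT and 57.0, 29.6 and 24.9 FPKM in *Npr1*+/-, so that *Npr1*+/- 3 lay below 2 WT libraries. The log2 fold change was 0.61 (SE 0.39) and was 0.12 without *Npr1*+/- 1. *Emcn*, the endomucin of capillary and venous surfaces, was at 17.1, 10.6 and 10.1 FPKM in WT and at 37.3, 15.7 and 20.6 FPKM in *Npr1*+/- (log2 fold change 0.99, SE 0.37), with *Npr1*+/- 2 just below WT 1, and its log2 fold change was 0.50 without *Npr1*+/- 1. The junction proteins *Esam* and *Cldn5* differed by 0.55 (SE 0.27) and 0.29 (SE 0.28), with overlapping groups, or by 0.29 and 0.050 without *Npr1*+/- 1. *Cd34* was at 82.7, 76.3 and 53.3 FPKM in WT and 68.9, 62.9 and 69.9 FPKM in *Npr1*+/-, a log2 fold change of -0.07 with a 95% interval from -0.51 to 0.38, and *Clec14a*, a C-type lectin of endothelial cells, was at 0.04 (SE 0.26). The interval of *Cd34* ended below the members' median of 0.59, which was true of 3 members, the others being *Erg* and *Klf4*.

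All 3 secreted and matrix-bound proteins were fully higher in *Npr1*+/-, against 3.9% of all genes, with a median log2 fold change of 0.87. *Mmrn2*, the endothelial matrix glycoprotein multimerin-2 that binds VEGF-A and CLEC14A, was at 10.1, 10.2 and 12.7 FPKM in WT and 23.8, 18.6 and 17.4 FPKM in *Npr1*+/-. Its log2 fold change was 0.87 (SE 0.19, edgeR unadjusted p = 0.00302, adjusted p = 0.999), the lowest unadjusted p of the members in this fit. The value lay between 0.69 and 1.00 when any 1 library was left out. *Vwf*, the platelet-binding von Willebrand factor, had 14.3, 10.01 and 17.6 FPKM in WT and 35.2, 20.3 and 22.1 FPKM in *Npr1*+/- (log2 fold change 0.90, SE 0.31). For the secreted angiogenic factor *Egfl7* the values were 34.6, 22.4 and 27.9 FPKM in WT and 49.8, 39.8 and 41.1 FPKM in *Npr1*+/- (log2 fold change 0.61, SE 0.20). *Npr1*+/- 1 was the highest library in all 3 genes, and the other *Npr1*+/- libraries were also above every WT library. Without it the log2 fold changes were 0.69 for *Mmrn2*, 0.58 for *Vwf* and 0.45 for *Egfl7*.

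The capillary genes differed in how far the genotypes were apart. *Plvap*, the protein of the diaphragms that close fenestrae and caveolae, was at 37.5, 34.0 and 22.7 FPKM in WT (31.4 ± 7.77, SD, n = 3) and at 89.7, 44.8 and 60.4 FPKM in *Npr1*+/- (65.0 ± 22.8, SD, n = 3). Its log2 fold change of 1.07 (SE 0.30, edgeR unadjusted p = 0.0104, adjusted p = 0.999) ranged from 0.72 to 1.27 when any 1 library was left out, and the adjusted p in DESeq2 with the replicate block was 0.000111. *Gpihbp1*, the capillary anchor of lipoprotein lipase, was at 68.3, 19.0 and 25.3 FPKM in WT and 78.3, 34.1 and 29.5 FPKM in *Npr1*+/-. Both libraries numbered 1 were far above the rest at this gene, and the log2 fold change was 0.38 (SE 0.59), or -0.26 without *Npr1*+/- 1.

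**Figure D2:**
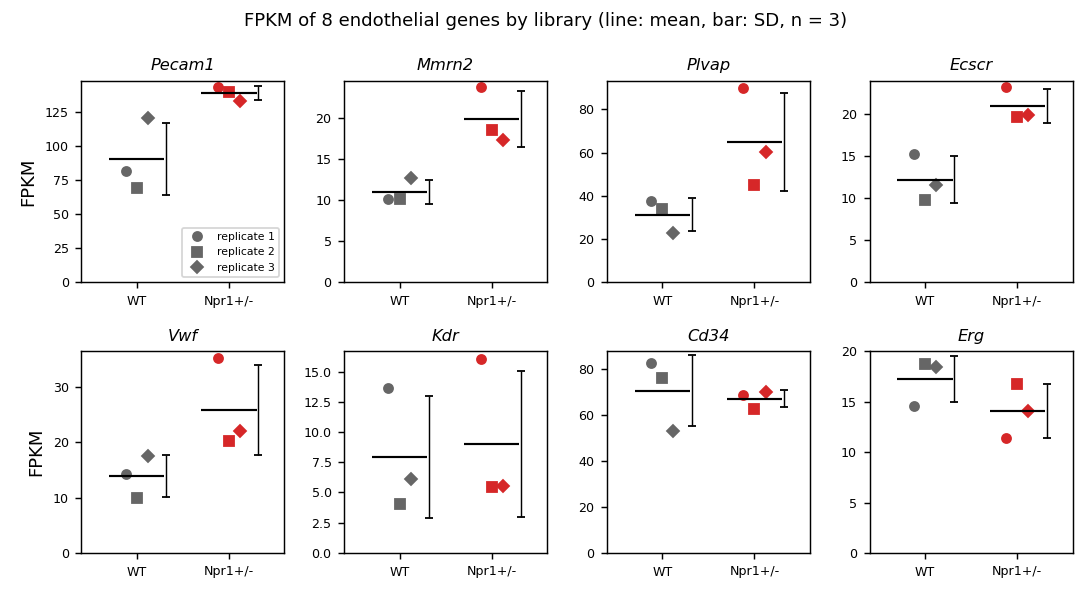
FPKM of *Pecam1*, *Mmrn2*, *Plvap*, *Ecscr*, *Vwf*, *Kdr*, *Cd34* and *Erg* in the 3 WT and 3 *Npr1*+/- libraries, with the mean and SD of each genotype. The genotypes are apart in *Pecam1*, *Mmrn2*, *Plvap*, *Ecscr* and *Vwf* and overlap in *Kdr*, *Cd34* and *Erg*.

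Of the 7 transcription factors, 6 had positive log2 fold changes, with a median of 0.51. The genotypes were separated in 3, all higher in *Npr1*+/-, against 3.9% of all genes. *Klf2*, a factor induced by laminar flow, was at 62.5, 65.5 and 88.7 FPKM in WT and 91.5, 121 and 93.7 FPKM in *Npr1*+/- (log2 fold change 0.51, SE 0.21), and its separation was narrow, with 165.0 normalized CPM in WT 3 and 165.1 in *Npr1*+/- 3. Its relative *Klf4* was at 30.3, 31.3 and 27.7 FPKM in WT and 31.9, 39.4 and 33.0 FPKM in *Npr1*+/-, a log2 fold change of 0.24 with a 95% interval from -0.08 to 0.56. *Tal1*, a basic helix-loop-helix factor of blood and endothelial development, had 1.83, 1.16 and 1.33 FPKM in WT and 2.27, 2.02 and 2.23 FPKM in *Npr1*+/- (log2 fold change 0.61, SE 0.22). The SOXF factors, which direct arterial and lymphatic specification, had similar values and overlapping groups, with 0.43 (SE 0.34) for *Sox7*, 0.59 (SE 0.28) for *Sox17* and 0.59 (SE 0.28) for *Sox18*. Without *Npr1*+/- 1 they were at 0.061, 0.45 and 0.39, and the median of the 7 factors was 0.39.

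*Erg*, the ETS factor that maintains endothelial identity, had the lowest log2 fold change of the members. It was at 14.6, 18.8 and 18.5 FPKM in WT and 11.4, 16.7 and 14.1 FPKM in *Npr1*+/-, with *Npr1*+/- 2 above WT 1. The log2 fold change of -0.32 (SE 0.19, edgeR unadjusted p = 0.133, adjusted p = 0.999) had a 95% interval from -0.77 to 0.13, so it included 0 and excluded the median of the members. It lay between -0.49 and -0.21 when any 1 library was left out, and with the replicate block it was -0.33 with an interval from -0.60 to -0.05, which excluded 0 (edgeR unadjusted p = 0.0254, adjusted p = 0.322). Of the other intracellular members, *Rasip1*, a RAS-interacting protein needed for vessel lumens, was at 11.6, 9.80 and 11.4 FPKM in WT and 22.0, 16.1 and 13.6 FPKM in *Npr1*+/- (log2 fold change 0.68, SE 0.21, and 0.42 without *Npr1*+/- 1). *Apold1*, an endothelial early-response gene, was at 3.42, 2.83 and 3.44 FPKM in WT and 3.87, 4.11 and 1.72 FPKM in *Npr1*+/-, where *Npr1*+/- 3 was the lowest of all libraries, and its log2 fold change was 0.02 (SE 0.35), or -0.16 without *Npr1*+/- 1.

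The lymphatic genes varied widely among the libraries of a genotype. *Lyve1*, the hyaluronan receptor of lymphatic endothelium that some macrophages of the vessel wall also carry, was at 29.1, 12.7 and 7.38 FPKM in WT and 21.7, 12.6 and 16.3 FPKM in *Npr1*+/-, a log2 fold change of 0.06 (SE 0.48), or -0.21 without *Npr1*+/- 1. *Prox1* was at 0.14, 0.21 and 0.05 FPKM in WT and 0.81, 0.12 and 0.33 FPKM in *Npr1*+/-. Its log2 fold change of 1.62 was the highest of the 35, with an SE of 0.79 and 0.61 without *Npr1*+/- 1. *Flt4* and *Nrp2*, which lymphatic vessels also use, were given with the receptors at 0.65 and 0.66.

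The evenness of the difference was read in several ways. The log2 fold changes of the members had a median of 0.59 and an SD of 0.37, against a median SE of 0.28 for a single member and an SD of 0.41 for all tested genes. In size, 12 members lay between 0 and 0.5, 19 between 0.5 and 1 and 2 between 1 and 2. Of the 35 members, 20 were within 1 SE of the median and 31 within 2 SE, and the 95% intervals of 32 included it. This SE also holds differences between libraries that the members share, so it is a lenient measure of evenness. The intervals of *Erg*, *Cd34* and *Klf4* left out the median on the low side. With the replicate block, which treats libraries of equal number as pairs, the median SE was 0.17 and the intervals of 7 members left out the blocked median of 0.56. These were *Kdr*, *Eng*, *Cd34*, *Erg* and *Klf4* on the low side and *Emcn* and *Plvap* on the high side, and the intervals of the other 28 included it.

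Library by library, the median deviation of the members from their own means over the 6 libraries (log2 CPM) was 0.02, -0.65 and -0.22 in WT 1, 2 and 3 and 0.65, 0.12 and -0.01 in *Npr1*+/- 1, 2 and 3. In *Npr1*+/- 1, 34 of the 35 members were above their own mean, and in WT 2 only 3 were. These libraries set the ends of the range, with 27 members highest in *Npr1*+/- 1 (28.9% of all genes) and 25 lowest in WT 2 (17.4% of all genes).

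**Figure D3:**
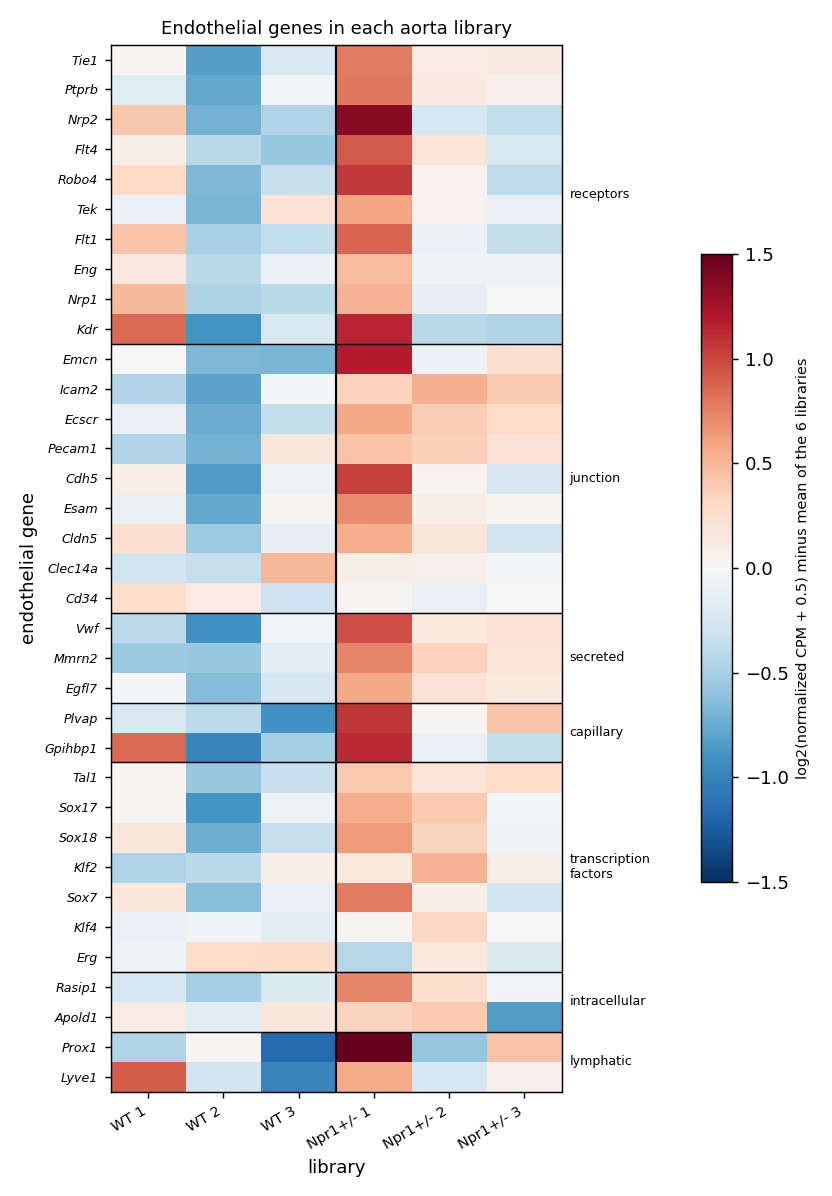
Heat map of the 35 members in the 6 libraries, as log2(normalized CPM + 0.5) minus the mean of the gene over all libraries, grouped by role, with colours ending at -1.5 and 1.5. The column of *Npr1*+/- 1 is above the mean in nearly every gene and that of WT 2 below it, while *Erg* is on the low side in *Npr1*+/- 1.

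To ask for single genes beyond a common shift, each member was set against the median of the other 34 in the same library. On this scale the genotypes differed by less than 0.25 in 20 of the 35 members. The values at the low end were -0.82 for *Erg*, -0.56 for *Apold1*, -0.54 for *Cd34* and -0.38 for *Clec14a*, and those at the high end 0.44 for *Emcn*, 0.54 for *Plvap* and 0.79 for *Prox1*. The genotypes were fully apart in 2 of the 35 on this scale, a share near that of all genes on their own scale (3.9% higher and 3.58% lower), so nothing is read from their number. They were *Ecscr*, whose mean was -1.43 in WT and -1.09 in *Npr1*+/- relative to the other members, and *Cldn5*, whose mean was -0.11 in WT and -0.31 in *Npr1*+/-.

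The difference also varied between the pairs of equal number. In the pair numbered 1, 32 of 35 members were higher in *Npr1*+/-, with a median difference of 0.63. The pair numbered 2 gave 32 members and 0.75, and the pair numbered 3 gave 25 members and 0.14, where 49.9% to 50.8% of all genes were higher in *Npr1*+/- in each pair. A second pattern, shared by both genotypes, ran along the libraries numbered 1. They were above the other 4 libraries in 11 members (31.4%, against 23.9% of all genes), including *Kdr*, *Gpihbp1*, *Nrp2*, *Lyve1*, *Robo4* and *Flt1*, with differences of 1.51 for *Kdr* and 1.49 for *Gpihbp1*. For *Pecam1*, *Klf4* and *Icam2* these differences were -0.02, -0.05 and -0.07, and for *Erg* -0.38. When both libraries numbered 1 were left aside, *Npr1*+/- 2 and 3 were above WT 2 and 3 in 23 members (65.7%, against 22.9% of all genes), and the median log2 fold change was 0.46.

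Markers of other tissues of the aortic wall moved with the same libraries. The 8 markers of white fat and of fat in general, such as *Adipoq* (adiponectin), had median deviations of 0.97, -1.40 and -1.10 in WT 1, 2 and 3. In *Npr1*+/- 1, 2 and 3 these were 1.73, -0.01 and -0.32. Their summed level was 1597 to 7101 CPM in WT and 3117 to 13055 CPM in *Npr1*+/-, all 8 had log2 fold changes above 0, and the median was 0.83. This shared sign was not kept when *Npr1*+/- 1 was left out and WT 1 stayed in. The values were then -0.21 for *Adipoq*, -0.16 for *Plin1*, -0.18 for *Cidec* and -0.012 for *Fabp4*. *Pparg* was at -0.49, *Cfd* at -0.14, *Lep* at 0.047 and *Retn* at 0.86 in that setting. Within the pairs numbered 1, 2 and 3, 8, 8 and 6 of the 8 markers were higher in *Npr1*+/-. The median differences in these pairs were 0.87, 1.38 and 0.81. The 8 smooth muscle markers were lowest in *Npr1*+/- 1, with a median deviation of -1.06 there and of -0.37 to 0.43 in the others, and a median log2 fold change of -0.21. The neuronal list, of which 4 of 11 markers were tested, had 591 CPM in *Npr1*+/- 1 and 78.4 to 98.3 CPM in the other libraries.

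Brown fat markers, *Ucp1* among them, were high in both libraries numbered 1 (1.44 in WT 1 and 1.40 in *Npr1*+/- 1) and between -1.22 and -0.37 elsewhere, with a median log2 fold change of 0.14. Red blood cell genes followed the libraries numbered 1 as well (2.10 and 1.83), with a median log2 fold change of -0.26. Those of leukocytes and fibroblasts were at -0.14 and -0.35, with 1 of 7 and 1 of 8 tested markers above 0, and pericyte markers were at -0.37. The remaining lists had median log2 fold changes of 1.14 for Schwann cells, 0.95 for cardiac muscle and 2.12 for mesothelium, the last from 1 tested marker of 5. The part of fat, nerve or muscle content in the difference of the endothelial genes was not tested.

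**Figure D4:**
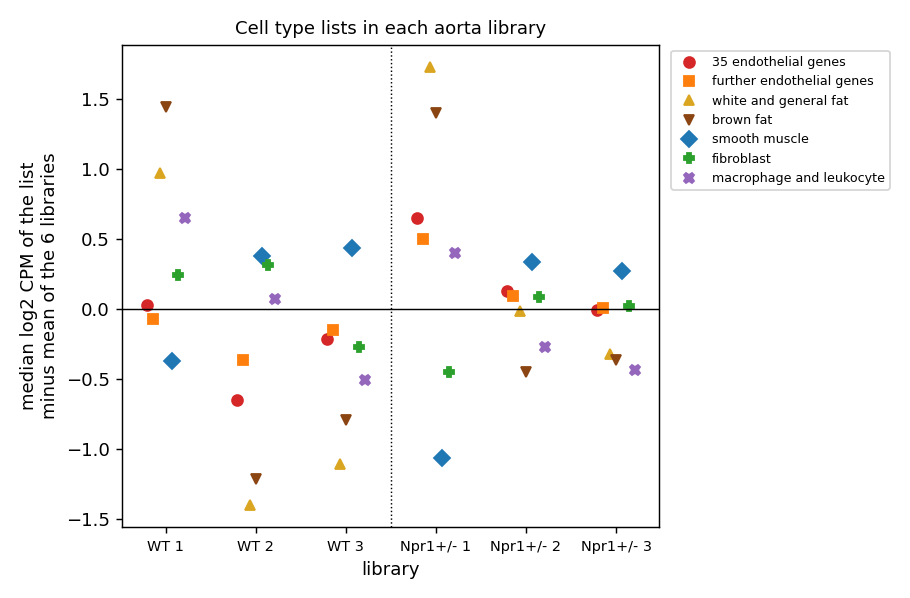
Median deviation from the mean of the 6 libraries (log2 CPM) for 7 gene lists in each library. The endothelial members run from -0.65 in WT 2 to 0.65 in *Npr1*+/- 1, white and general fat from -1.40 to 1.73 in the same libraries, and smooth muscle stands at -1.06 in *Npr1*+/- 1.

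A further list of 45 endothelial genes showed a difference of the same sign and smaller size. Of the 44 tested, 40 had positive log2 fold changes, with a median of 0.39, and 0 were called by edgeR, which listed 9 at an unadjusted p under 0.05, all higher in *Npr1*+/- (1.88% of all genes in that direction). Without *Npr1*+/- 1 the median was 0.19 and 31 of the 44 were above 0, against 43.5% of all genes. The genotypes did not overlap in 11 of them, all higher in *Npr1*+/- (3.9% of all genes): *Nos3*, *Elk3*, *Hhex*, *Aplnr*, *Shank3*, *Procr*, *Ephb4*, *Ramp2*, *Podxl*, *Ccl21a* and *Icam1*. *Ccl21a* has near-identical copies, between which the counting may have divided reads. *Nos3*, the endothelial nitric oxide synthase, was at 14.1, 10.5 and 14.5 FPKM in WT and 32.6, 30.9 and 25.5 FPKM in *Npr1*+/- (log2 fold change 1.19, SE 0.19). *Ramp2*, a co-receptor for adrenomedullin, had 52.3, 44.0 and 54.6 FPKM in WT and 91.5, 85.7 and 99.1 FPKM in *Npr1*+/- (log2 fold change 0.88, SE 0.14). In both genes the 3 *Npr1*+/- libraries were well above the 3 WT libraries, and they were the 2 that DESeq2 called, with adjusted p-values of 0.000839 and 0.00122. Their log2 fold changes without *Npr1*+/- 1 were 1.08 and 0.85. *Icam1*, the leukocyte adhesion molecule of activated endothelium, was at 10.8, 7.53 and 9.37 FPKM in WT and 15.8, 11.95 and 14.6 FPKM in *Npr1*+/- (log2 fold change 0.62, SE 0.19). In the pairs numbered 1, 2 and 3 the median differences of the further list were 0.47, 0.52 and 0.14.

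The ligands of the receptors were not shifted in one direction. Of 23 angiogenic ligands and their partners, 22 were tested, 10 had positive and 12 negative log2 fold changes, the median was -0.03, and 0 were called by edgeR or at an unadjusted p under 0.05, with 0 called by DESeq2. No ligand was separated between the genotypes, where 3.9% of all genes were fully higher and 3.58% fully lower, so nothing is read from this count. DESeq2 with the replicate block called *Vegfa* (log2 fold change 0.52, adjusted p = 0.0254) and *Angpt2* (-0.58, adjusted p = 0.0453). *Vegfa*, the main ligand of KDR, was at 75.2, 31.1 and 33.2 FPKM in WT and 103, 47.1 and 47.5 FPKM in *Npr1*+/-. *Angpt2*, the context-dependent antagonist of TIE2, went the other way, with 12.9, 19.5 and 20.8 FPKM in WT and 7.74, 13.7 and 14.4 FPKM in *Npr1*+/-. Both followed the libraries numbered 1, *Vegfa* upwards and *Angpt2* downwards, in either genotype. Without *Npr1*+/- 1 the log2 fold changes in edgeR were -0.039 for *Vegfa* and -0.36 for *Angpt2*, against 0.51 and -0.57 with all libraries.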

How the data were processed

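RNA of whole aortas was sequenced on a BGISEQ-500. Per the labels and the methods of the study, the authors filtered reads with SOAPnuke, aligned them to a coding gene set with Bowtie2 and estimated expression with RSEM, and mm10 and DESeq2 1.4.5 are named in the submitters' processing notes. The authors deposited estimated counts without normalization and, as read from the values, FPKM of 18191 genes by NCBI identifier. RSEM divides reads that fit several genes. The columns of genotype means were not used.

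The estimated counts were rounded and compared with R 4.3.3 and edgeR 4.0.16 (TMM, minimum count of 10, quasi-likelihood test, Benjamini-Hochberg adjustment over 13938 genes). Calls required an adjusted p below 0.05 together with a log2 fold change of 0.5 or more in either direction. Log2 CPM used a prior count of 2. Alternatives were DESeq2 1.42.0, its size factors, no filter, limma 3.58.1 on log2(FPKM + 0.1) or log2(FPKM + 1) for mean levels of 0.1 FPKM or more, the replicate number as a block, and leaving out each library. DESeq2 with the replicate block and leaving out both libraries numbered 1 were added after seeing the data. The tests were checked on simulated counts whose changes were larger than those of the members. The simulated counts held no effect shared by libraries of equal number, so the check does not measure the power for these genes.

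The numbers come from the labels. Deviations from the genotype means correlated at 0.64, 0.39 and 0.24 between libraries of equal number and at -0.58 to 0.44 between the others. Libraries of equal number were treated as pairs in the block, although the correlations set apart only those numbered 1. The first principal component (59.3% of the variance) set the libraries numbered 1 apart. Normalization factors lay between 0.972 and 1.03 and the common biological coefficient of variation was 0.292.

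The members, the other gene lists and their roles were chosen with earlier results of these data known. Members given in every library are those whose genotypes did not overlap, the 5 with the highest mean FPKM, the 3 largest and 3 lowest log2 fold changes, *Pecam1* and *Cdh5*. *Kdr*, *Gpihbp1*, *Lyve1*, *Vegfa* and *Angpt2* were added after their values were seen. Positions and promoters are those of RefSeq on GRCm38.p6. Promoter stretches are shown only from windows that hold no GENCODE exon and lie outside the RefSeq span of the gene. Not every such window is shown.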

Additional observations from a re-analysis of the deposited data

How the results depend on the processing

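With edgeR, 0 members were called without a filter on low counts, with the size factors of DESeq2, with the replicate block that pairs libraries of equal number, and without each library in turn (0 to 0). With DESeq2 and the replicate block 9 members, 8 further endothelial genes or ligands and 265 of all genes were called. DESeq2 without the block called 2 of the further genes and 16 of all genes, and edgeR without both libraries numbered 1 called 1 of all genes. The median log2 fold change of the members was 0.56 with the replicate block, 0.45 with limma on log2(FPKM + 1) and 0.26 to 0.76 when 1 library was left out. Their SD was then 0.34 to 0.45, and the number above 0 was 26 to 33, the lowest without *Npr1*+/- 1 (43.5% of all genes above 0). The number without overlap was 13 to 24, the highest without WT 1. There 16.6% of all genes were fully higher, since fewer values have to be apart.

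Of 47 single genes compared, 9 changed sign under some setting. Leaving out 1 library gave -0.55 to 0.84 for *Kdr*, -0.15 to 0.67 for *Flt1*, -0.026 to 0.60 for *Nrp1*, -0.16 to 1.06 for *Nrp2*, -0.12 to 0.36 for *Clec14a*, -0.23 to 0.054 for *Cd34*, -0.26 to 1.12 for *Gpihbp1*, -0.19 to 0.33 for *Apold1* and -0.30 to 0.76 for *Lyve1*. Without both libraries numbered 1 the values were -0.11 for *Clec14a*, 0.020 for *Cd34* and -0.11 for *Apold1*. *Apold1* was also at -0.059 with the replicate block in edgeR, -0.068 with it in DESeq2, -0.088 with limma on log2(FPKM + 0.1) and -0.050 on log2(FPKM + 1). The cause of these changes was not tested. With 3 libraries a genotype and a median SE of 0.28, differences of the size of the members' median were not called singly by edgeR. Low counts limit *Prox1*.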
